A study of Mus musculus with 10 samples.

Results

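The 8 mouse genes described here encode receptors that bind immunoglobulin, the chain that several of them signal through, or an Fc receptor-like protein (Fcrls). They were chosen by symbol from the 22607 genes measured: Fcgr1, Fcgr2b, Fcgr3, Fcgr4, Fcer1g, Fcgrt, Fcrls and Fcamr. All 8 passed the filter on low counts in both sets of libraries, so none was left out of a test. Polyadenylated RNA was sequenced from antigen-presenting cells sorted out of C57BL/6 mice, all wild type and 8 weeks old, with no genetic change and no treatment in any group. There were 5 groups with 2 libraries each: colonic MHCII+ cells, splenic MHCII+ cells, colonic CD11b+CD11c+ cells, colonic CD11b+ cells and colonic CD11c+ cells. The tissue of each group was read from abbreviated titles together with the design text. Nothing in the labels says whether the libraries of a group came from separate or pooled mice, so each p-value measures only how far these libraries differ, and that spread may be technical.

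Total estimated counts lay between 12806139 and 41769042 per library. In the sort genes, Itgam (CD11b) reached 694.2 and 793.4 CPM (counts scaled to library size) in CD11b+CD11c+ libraries and 741.9 and 743.2 CPM in CD11b+ libraries, against 25.9 and 40.5 CPM in CD11c+ libraries. Itgax (CD11c) was present in all of these groups, at 679.5 and 771.6 CPM in CD11b+CD11c+ libraries, 490.9 and 557 CPM in CD11b+ libraries and 783.7 and 945.5 CPM in CD11c+ libraries. Both CD11b+ libraries, whose label lacks CD11c, had less than the other 4 but were far from 0. The class II gene H2-Ab1 stood at 4403 and 5658 CPM in colonic MHCII+ libraries and at 5058 and 4308 CPM in splenic ones. Ptprc (CD45, the pan-leukocyte marker) was at 1170 and 1162 CPM in colonic MHCII+ libraries, against 3115 and 3132 CPM in splenic MHCII+ libraries, and 6 epithelial marker genes summed to 4798 and 4868 CPM in colonic MHCII+ libraries, against 13.6 and 16.6 CPM in splenic ones. Levels of CPM were scaled within the MHCII+ set or within the 3 integrin subsets, and no test was made across these sets.

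Fc receptors let a cell sense the antibody that coats a microbe or an immune complex. The activating IgG receptors of the mouse, encoded by Fcgr1, Fcgr3 and Fcgr4, signal through the FcR gamma chain encoded by Fcer1g, whose tyrosine motif is phosphorylated by Src-family kinases and then docks the kinase Syk. The inhibitory receptor encoded by Fcgr2b carries an inhibitory tyrosine motif in its own tail and recruits the lipid phosphatase SHIP-1, encoded by Inpp5d. Intestinal macrophages and dendritic cells meet IgG and IgA complexes of gut microbes, and the balance of activating and inhibitory receptors sets how such cells respond.

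A short alternative exon in the cytoplasmic tail separates the Fcgr2b coding forms. In mouse B cells the form that contains it is known to be held at the cell surface, and the form without it is the main one of macrophages, which internalise complexes through it. The exon is printed because the shares of these forms differed between groups. It lies at chr1:170963325-170963465 on the minus strand of GRCm38 (mm10), as GENCODE M21 gives it, and the capitals mark the first 57 of its 141 bases, which a form with part of the exon keeps.
Fcgr2b exon: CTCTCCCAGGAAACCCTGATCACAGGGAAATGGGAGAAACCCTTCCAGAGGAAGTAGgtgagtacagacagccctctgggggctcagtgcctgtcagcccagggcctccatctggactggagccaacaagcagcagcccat

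The 150 bases before the RefSeq start of 4 genes (Fcgr1, Fcgr3, Fcgr4 and Fcrls) are shown because each holds a match to a myeloid motif. Fcamr also holds one and is not shown, and Fcgr2b, Fcer1g and Fcgrt hold none in the window searched. The sequences are from RefSeq on GRCm38.p6, 5′ to 3′ on the strand of the gene, at chr3:96293970-96294119 for Fcgr1 (minus), chr1:171059404-171059553 for Fcgr3 (minus), chr1:171018776-171018925 for Fcgr4 (plus) and chr3:87263525-87263674 for Fcrls (minus). The Fcgr3 and Fcrls stretches lie inside the GENCODE M21 spans of these genes (chr1:171051174-171064935 and chr3:87250758-87263738). Their RefSeq starts are thus not the outermost annotated starts. The Fcgr4 stretch overlaps the first bases of its span (from chr1:171018920). Capitals mark each match, on either strand, to GAGGAA, which holds the core bound by the myeloid factor PU.1.
Fcgr1 promoter: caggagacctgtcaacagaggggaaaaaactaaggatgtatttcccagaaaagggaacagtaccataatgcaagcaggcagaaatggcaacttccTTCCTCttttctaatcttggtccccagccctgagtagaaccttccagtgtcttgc
Fcgr3 promoter: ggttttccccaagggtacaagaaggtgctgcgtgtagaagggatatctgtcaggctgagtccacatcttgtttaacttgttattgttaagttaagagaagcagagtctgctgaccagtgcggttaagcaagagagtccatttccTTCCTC
Fcgr4 promoter: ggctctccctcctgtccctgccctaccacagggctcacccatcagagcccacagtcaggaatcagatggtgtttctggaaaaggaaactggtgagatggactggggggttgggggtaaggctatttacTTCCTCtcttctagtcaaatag
Fcrls promoter: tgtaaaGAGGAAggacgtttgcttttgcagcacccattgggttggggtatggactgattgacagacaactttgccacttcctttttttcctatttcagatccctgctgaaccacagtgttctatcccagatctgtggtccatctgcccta

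The search window was the 250 bases before the start, and all 8 genes had an entry. GAGGAA was found for 5 of the 8 genes, at 55 bases before the start of Fcgr1, 6 before Fcgr3, 22 before Fcgr4, 144 before Fcrls and 35 before Fcamr. Of all 27025 promoters, 6252 (23.1%) held it. These are matches of letters, and no binding was measured.

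Which Fc receptors distinguish colonic from splenic antigen-presenting cells was asked first. Relative to splenic MHCII+ cells, colonic MHCII+ cells had higher Fcrls, Fcgr2b and Fcgr3 and lower Fcgr4 and Fcamr. Fcgr1, Fcer1g and Fcgrt did not pass the test. So 5 of 8 genes passed, 3 higher and 2 lower, where 60.3% of the 15076 genes tested passed (31.6% higher and 28.7% lower). The count of 5 of 8 thus lies near the background. The libraries of the groups did not overlap for 7 of the 8, against 83.2% of all genes.

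Among the colonic subsets, CD11b+ cells had higher levels than CD11c+ cells of every gene but Fcamr. That is 7 of 8 called, all higher, with the groups not overlapping for 7, where 52% of 14225 genes were called (27% higher, 25% lower) and 80.6% did not overlap. CD11b+CD11c+ cells compared with CD11c+ cells gave calls for the same 7 genes, all higher, where 43% of genes were called (20.4% higher, 22.5% lower). Here the libraries did not overlap for all 8, against 75.4% of genes. Both of these comparisons used the same 2 CD11c+ libraries, so they are not independent of each other. Between CD11b+CD11c+ and CD11b+ cells, edgeR called 0 of the 8 genes, where it called 9.63% of all genes (3.79% higher, 5.84% lower). At an unadjusted p under 0.05 that count was 1 (Fcgrt), and DESeq2 and limma each called 0 of the 8. The libraries did not overlap for Fcgr2b, Fcgrt and Fcrls, 3 of 8, against 59.4% of genes.

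**Figure D1:**
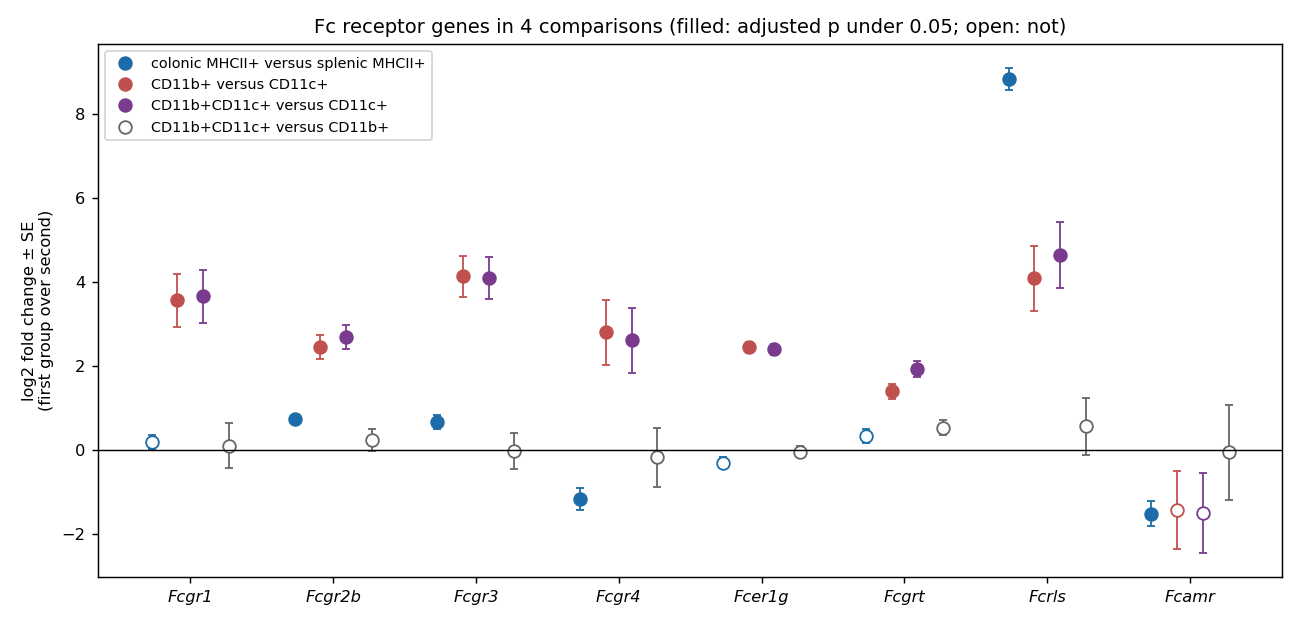
The log2 fold change of each Fc receptor gene (vertical axis, ± SE) is drawn for the 4 comparisons, first-named group over second, with filled points for an adjusted p under 0.05 and open points for the rest. Fcrls stands at 8.82 for colonic over splenic MHCII+ cells, 7 genes lie above 1 for both CD11b-bearing subsets over CD11c+ cells, and every point for CD11b+CD11c+ over CD11b+ is open.

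Fcgr1 encodes the high-affinity IgG receptor (chr3:96282909-96293969, minus strand). It was at 18.1 and 22.4 CPM in colonic MHCII+ libraries, against 16.7 and 18.8 CPM in splenic MHCII+ libraries. These groups overlapped, and their log2 difference of 0.18 ± 0.17 (SE) did not pass (adjusted p = 0.391). In the integrin subsets it stood at 42.9 and 57.1 CPM in CD11b+CD11c+ libraries, 41.3 and 52.0 CPM in CD11b+ libraries and 1.403 and 6.998 CPM in CD11c+ libraries, where it rested on 37 and 116 estimated counts. All CD11b-bearing libraries were above both CD11c+ libraries, and the CD11c+ libraries differed widely from each other. On the log2 scale the fold change was 3.65 ± 0.63 for CD11b+CD11c+ over CD11c+ cells (adjusted p = 0.00585) and 3.55 ± 0.63 for CD11b+ over CD11c+ cells (adjusted p = 0.00519). Leaving out CD11c+ library 1 brought these to 2.83 and 2.73, and leaving out CD11c+ library 2 brought them to 5.14 and 5.04, still past the threshold. For CD11b+CD11c+ over CD11b+ cells the log2 difference was 0.10 ± 0.54 (adjusted p = 0.93). In bulk samples such as these, fewer cells of a type and less RNA per cell cannot be told apart, here or for any gene below.

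Fcgr3, the low-affinity activating IgG receptor of most myeloid cells (chr1:171051174-171064935, minus strand), was at 155.4 and 133.5 CPM in colonic MHCII+ libraries, against 77.6 and 105.3 CPM in splenic ones. Both colonic libraries were above both splenic ones. Its log2 fold change was 0.66 ± 0.16 (1.58-fold, adjusted p = 0.0122). This call was lost without splenic library 1 (0.44, adjusted p = 0.053), with limma on log2(TPM + 1) (0.50, adjusted p = 0.12) and in a fit of all 10 libraries (0.64, adjusted p = 0.168). Among the colonic subsets Fcgr3 had the highest fold of the activating receptors. It was at 261.6 and 315.2 CPM in CD11b+CD11c+ libraries and 277.6 and 312.7 CPM in CD11b+ libraries, against 8.57 and 25.7 CPM in CD11c+ libraries. No CD11c+ library came near the other 4. Relative to CD11c+ cells, the log2 fold change was 4.09 ± 0.50 in CD11b+CD11c+ cells (17.0-fold, adjusted p = 0.00191) and 4.12 ± 0.50 in CD11b+ cells (17.4-fold, adjusted p = 0.0015). Without CD11c+ library 1 these were 3.48 and 3.51, and without CD11c+ library 2 they were 5.06 and 5.10. The CD11b+CD11c+ and CD11b+ libraries overlapped, with a log2 difference of -0.03 ± 0.43 (adjusted p = 0.969).

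Fcgr4 encodes the receptor of intermediate affinity for IgG2 subclasses, known from mouse neutrophils, monocytes and macrophages (chr1:171018920-171029761, plus strand). It was the activating receptor that was lower in the colon. Colonic MHCII+ libraries had 13.9 and 10.5 CPM, against 21.6 and 33.7 CPM in splenic MHCII+ libraries. Both colonic libraries were below both splenic ones, with a log2 fold change of -1.17 ± 0.26 (adjusted p = 0.00789), and the call was lost in the fit of all 10 libraries (-1.19, adjusted p = 0.137). All 8 neutrophil markers were lower in colonic MHCII+ cells, summing to 280.7 and 187.3 CPM, against 5075 and 7352 CPM in splenic MHCII+ cells, with none at 0, and 5 of 6 monocyte markers were lower, summing to 690.7 and 680.2 CPM, against 1821 and 2186 CPM. Their part in the Fcgr4 difference was not tested. Among the subsets Fcgr4 was at 34.5 and 60.7 CPM in CD11b+CD11c+ libraries, 49.0 and 58.5 CPM in CD11b+ libraries and 2.05 and 14.1 CPM in CD11c+ libraries. The CD11c+ libraries were the lowest, and CD11c+ library 2 was well above library 1.

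The Fcgr4 log2 fold change was 2.61 ± 0.77 for CD11b+CD11c+ over CD11c+ cells (adjusted p = 0.0365) and 2.79 ± 0.78 for CD11b+ over CD11c+ cells (adjusted p = 0.0252). These were the least firm of the called differences from CD11c+ cells. Without either CD11b+ library, CD11b+ over CD11c+ no longer passed (adjusted p = 0.0761 without library 1 and 0.0945 without library 2). The call for CD11b+CD11c+ over CD11c+ was lost without either CD11b+CD11c+ library (adjusted p = 0.0647 without library 1 and 0.146 without library 2), without either CD11b+ library (adjusted p = 0.0721 and 0.0692) and with an offset for effective length (adjusted p = 0.0576). Leaving out CD11c+ library 1 gave 1.74 and 1.92 for the CD11b+CD11c+ and CD11b+ subsets, and leaving out library 2 gave 4.52 and 4.70. For CD11b+CD11c+ over CD11b+ cells the log2 difference was -0.18 ± 0.71 (adjusted p = 0.901).

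Fcer1g, the shared gamma chain (chr1:171229572-171234365, minus strand), was at 143.6 and 172.1 CPM in colonic MHCII+ libraries, against 182.8 and 208 CPM in splenic MHCII+ libraries. The colonic libraries were the lower, but the log2 difference of -0.31 ± 0.12 did not pass (adjusted p = 0.0705). It passed in several alternatives, among them limma on log2(TPM + 1) (-0.51, adjusted p = 0.0262) and the fit without colonic library 2 (-0.45, adjusted p = 0.0192). In the subsets it had 227.2 and 278.4 CPM in CD11b+CD11c+ libraries, 244.8 and 278.5 CPM in CD11b+ libraries and 46.9 and 49.8 CPM in CD11c+ libraries. Unlike the activating receptors, it had nearly the same level in both CD11c+ libraries. Set against those, the log2 fold change was 2.39 ± 0.13 in CD11b+CD11c+ cells (5.23-fold, adjusted p = 0.000268) and 2.44 ± 0.14 in CD11b+ cells (5.42-fold, adjusted p = 0.000214). Over all alternatives these values lay between 2.29 and 2.52. CD11b+CD11c+ and CD11b+ cells overlapped, with a log2 difference of -0.05 ± 0.13 (adjusted p = 0.845).

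Fcgr2b, the inhibitory IgG receptor (chr1:170958617-170976547, minus strand), was at 182.2 and 171.9 CPM in colonic MHCII+ libraries, against 109.8 and 105.5 CPM in splenic MHCII+ libraries. The libraries of each group lay close together and the groups did not overlap. The log2 fold change was 0.72 ± 0.09 (1.65-fold, adjusted p = 0.00072). Among the subsets it was at 355.7 and 451.1 CPM in CD11b+CD11c+ libraries, 332.2 and 353.9 CPM in CD11b+ libraries and 45.4 and 81.5 CPM in CD11c+ libraries. The CD11c+ libraries were again the lowest, by a smaller factor than for Fcgr3. Its log2 fold change over CD11c+ cells was 2.67 ± 0.29 in CD11b+CD11c+ cells (6.37-fold, adjusted p = 0.00132) and 2.44 ± 0.28 in CD11b+ cells (5.42-fold, adjusted p = 0.00132). The CD11b+CD11c+ libraries were both above the CD11b+ libraries, but the log2 difference of 0.23 ± 0.27 did not pass (adjusted p = 0.637).

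Fcgr2b and Fcgr3 share coding sequence, which bears on how reads were divided between them. Of the 31-base words of the exon-less Fcgr2b coding sequence, 233 of 852 (27.3%) also occur in Fcgr3, and they make up 30.1% of the 774 words of the main Fcgr3 transcript. Among the 8 genes, no other pair shared a word. With the counts of both genes summed before the fit, the log2 fold change over CD11c+ cells was 3.10 in CD11b+CD11c+ cells (adjusted p = 0.0013) and 2.99 in CD11b+ cells (adjusted p = 0.00107).

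The Fcgr2b coding forms differed in share between groups. The form with the whole exon took 17.6% (95% exact interval 16.6 to 18.6) and 19.2% (17.8 to 20.7) of Fcgr2b counts in colonic MHCII+ libraries, against 41.6% (40.2 to 43.1) and 38.4% (36.8 to 40.0) in splenic MHCII+ libraries. The intervals cover counting error only and take estimated counts as counts. Among the subsets the share was 8.50% (7.76 to 9.29) and 6.71% (6.08 to 7.38) in CD11b+CD11c+ libraries, 8.98% (8.15 to 9.87) and 7.37% (6.74 to 8.05) in CD11b+ libraries and 43.4% (40.6 to 46.3) and 33.5% (30.9 to 36.0) in CD11c+ libraries. The splenic MHCII+ and CD11c+ libraries were thus the highest, and both CD11b-bearing subsets the lowest. The form with part of the exon took between 1.47 and 6.87% in any library. No test was made of these shares.

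Levels of the forms in TPM, a relative abundance corrected for transcript length, showed which form carried the gene's difference. The form without the exon was at 106.2 and 92.1 TPM in colonic MHCII+ libraries, against 46.0 and 47.4 TPM in splenic MHCII+ libraries, a ratio of means of 2.12. The form with the whole exon ran the other way, at 19.1 and 19.2 TPM in colonic MHCII+ libraries, against 29.4 and 27.5 TPM in splenic ones (ratio 0.674). In the subsets the exon-less form was at 222.8 and 288.7 TPM in CD11b+CD11c+ libraries, 218.6 and 231.4 TPM in CD11b+ libraries and 16.8 and 34.9 TPM in CD11c+ libraries. Relative to CD11c+ cells its mean was 9.89 times as high in CD11b+CD11c+ cells and 8.70 times as high in CD11b+ cells. The whole-exon form differed far less, at 17.6 and 17.5 TPM in CD11b+CD11c+ libraries, 18.2 and 15.4 TPM in CD11b+ libraries and 11.4 and 15.3 TPM in CD11c+ libraries, with ratios of 1.31 and 1.26 over CD11c+ cells. The CD11b+ and CD11c+ libraries came close for this form, with the lowest CD11b+ library at 15.4 and the highest CD11c+ library at 15.3 TPM.

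B cell and plasma cell markers were set beside the whole-exon share. All 7 B cell markers were lower in colonic MHCII+ cells, summing to 79.5 and 82.2 CPM, against 1444 and 1550 CPM in splenic MHCII+ cells, with none at 0. In the subsets, the same markers summed to 47.3 and 50.4 CPM in CD11b+CD11c+ libraries, 56.8 and 61.3 CPM in CD11b+ libraries and 51.4 and 79.3 CPM in CD11c+ libraries. These sums hide markers that went opposite ways. Of 6 measured, 1 was higher and 3 lower in CD11b+CD11c+ than in CD11c+ cells, and 1 was higher and 1 lower in CD11b+ than in CD11c+ cells. Cd79a averaged 10.2 ± 1.98 CPM in CD11b+CD11c+ cells (adjusted p = 0.00254) and 15.5 ± 1.15 CPM in CD11b+ cells (adjusted p = 0.00913), against 30.4 ± 6.68 CPM in CD11c+ cells. Cd22 ran the other way, at 22.7 ± 5.94 CPM in CD11b+CD11c+ cells (adjusted p = 0.0204) and 21.9 ± 3.81 CPM in CD11b+ cells (adjusted p = 0.0186), against 7.57 ± 4.22 CPM in CD11c+ cells. Plasma cell markers summed to 12510 and 9937 CPM in CD11b+CD11c+ and 16180 and 13080 CPM in CD11b+ libraries. The CD11c+ libraries had 29790 and 39650 CPM. Colonic MHCII+ libraries had 14550 and 16370 CPM, against 238.9 and 214.2 CPM in splenic ones, where the whole-exon share was higher. The part of B cells or plasma cells in these shares was not tested.

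**Figure D2:**
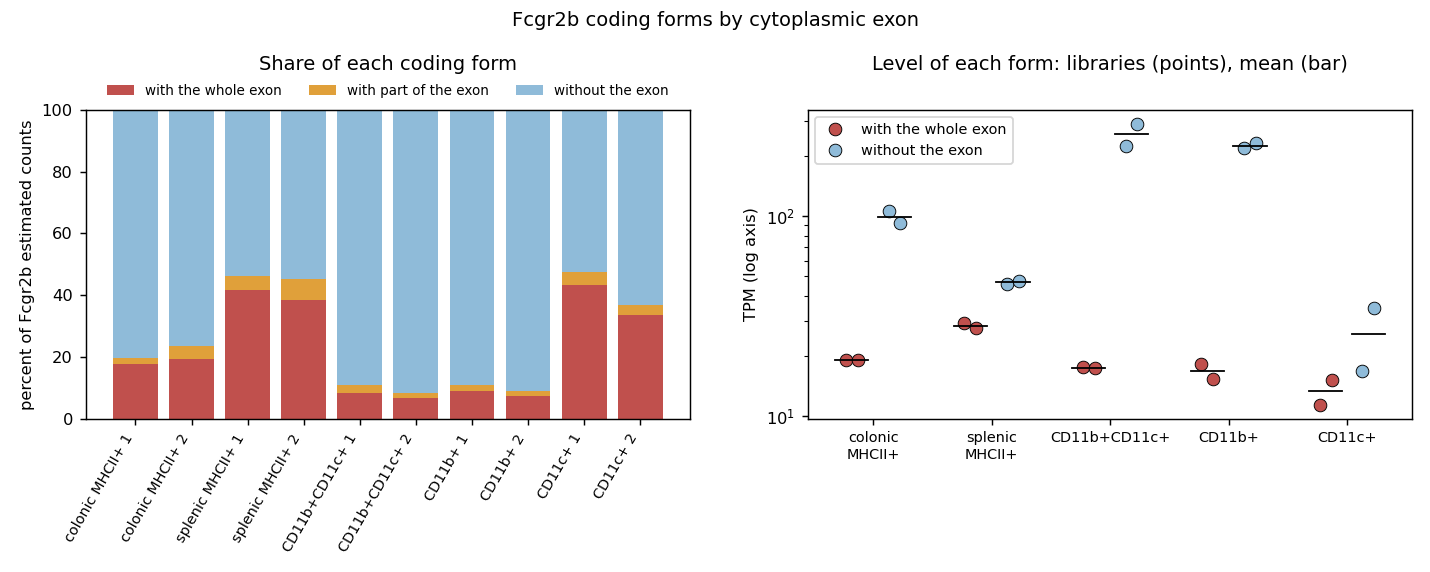
Left, bars give the percent of Fcgr2b estimated counts on each coding form in each library. Right, points give the TPM (log axis) of the whole-exon and exon-less forms by library, with bars for group means. The whole-exon form lies between 11.4 and 29.4 TPM in all 10 libraries, while the exon-less form spans 16.8 to 288.7 TPM.

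Fcgrt encodes the heavy chain of the neonatal Fc receptor, which pairs with beta-2 microglobulin and carries IgG through endosomes (chr7:45092990-45103851, minus strand). It was at 77.5 and 111.9 CPM in colonic MHCII+ libraries, against 76.1 and 75.6 CPM in splenic MHCII+ libraries. Colonic library 1 lay just above the splenic libraries and library 2 far above, and the log2 difference of 0.32 ± 0.17 did not pass (adjusted p = 0.152). Without colonic library 1 it was 0.52 and passed (adjusted p = 0.00567). Its called folds over CD11c+ cells were the smallest of the 7 genes. It stood at 245.6 and 302.5 CPM in CD11b+CD11c+ libraries and 188.2 and 192.9 CPM in CD11b+ libraries, against 60.8 and 84.5 CPM in CD11c+ libraries. The order was CD11b+CD11c+ above CD11b+ above CD11c+ with no overlap. The log2 fold change over CD11c+ cells was 1.92 ± 0.18 in CD11b+CD11c+ cells (3.77-fold, adjusted p = 0.00099) and 1.39 ± 0.18 in CD11b+ cells (2.62-fold, adjusted p = 0.00183).

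For CD11b+CD11c+ over CD11b+ cells, the Fcgrt log2 difference of 0.52 ± 0.18 did not pass over all genes (adjusted p = 0.127, unadjusted p = 0.0241). It passed with no count filter (0.62, adjusted p = 0.0323) and without either CD11c+ library, which enter this contrast only through the shared spread (adjusted p = 0.0374 without library 1 and 0.0376 without library 2). A coding sequence of 110 bases, Fcgrt-202, held between 0.354 and 2.49% of the gene's counts but between 12.1 and 51.2% of its TPM. Without it, Fcgrt was at 42.1 and 58.0 TPM in colonic MHCII+ libraries and 44.1 and 47.0 TPM in splenic ones, where the colonic mean with it was 87.2 ± 45.0 TPM (SD, n = 2).

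Fcrls encodes a secreted Fc receptor-like scavenger protein found in rodents and known as a marker of mouse microglia (chr3:87250758-87263738, minus strand). It had 115.9 and 140.9 CPM in colonic MHCII+ libraries, against 0.188 and 0.393 CPM in splenic MHCII+ libraries, where it rested on 8 and 13 estimated counts. This was the widest gap of any of the 8 genes in any comparison. The log2 fold change was 8.82 ± 0.26 (454-fold, adjusted p = 2.76e-06). With limma, which used TPM and a pseudocount that lifts the splenic level, the value was 5.35 on log2(TPM + 1) and 7.48 on log2(TPM + 0.1). With an effective length offset on the counts it was 8.32. Among the subsets Fcrls was at 381.6 and 447.1 CPM in CD11b+CD11c+ libraries and 269.1 and 295.5 CPM in CD11b+ libraries, against 4.66 and 29.3 CPM in CD11c+ libraries.

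No 2 of these subsets overlapped for Fcrls, whose log2 fold change over CD11c+ cells was 4.63 ± 0.79 in CD11b+CD11c+ cells (24.8-fold, adjusted p = 0.00574) and 4.08 ± 0.77 in CD11b+ cells (16.9-fold, adjusted p = 0.00673). Without CD11c+ library 1 these were 3.82 and 3.26, and without CD11c+ library 2 they were 6.46 and 5.91. Between CD11b+CD11c+ and CD11b+ cells the log2 difference was 0.55 ± 0.68 and did not pass (adjusted p = 0.662). It passed at 0.56 when CD11c+ library 1 (adjusted p = 0.0259) or library 2 (adjusted p = 0.026) was left out.

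Fcamr encodes a receptor for the Fc part of IgA and IgM, known from follicular dendritic cells and B cells (chr1:130800902-130814740, plus strand). It was the rarest of the 8 in every colonic group and the only one highest in the spleen, where Fcrls was rarer still. Colonic MHCII+ libraries had 2.40 and 2.10 CPM, against 6.43 and 6.59 CPM in splenic MHCII+ libraries, from 72 and 36 estimated counts in the colon and 274 and 218 in the spleen. The groups did not overlap, and the log2 fold change was -1.53 ± 0.31 (adjusted p = 0.00535). It moved with the B cell markers given above, whose part was not tested. In the subsets it rested on 4 and 5 counts in CD11b+CD11c+ libraries, 9 and 1 in CD11b+ libraries and 15 and 23 in CD11c+ libraries. At this depth no difference between subsets was detectable. Its adjusted p was 0.239 for CD11b+CD11c+ over CD11c+ cells, 0.231 for CD11b+ over CD11c+ cells and 0.976 for CD11b+CD11c+ over CD11b+ cells, and the direction of the last changed between alternatives (log2 difference -0.96 to 2.38).

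**Figure D3:**
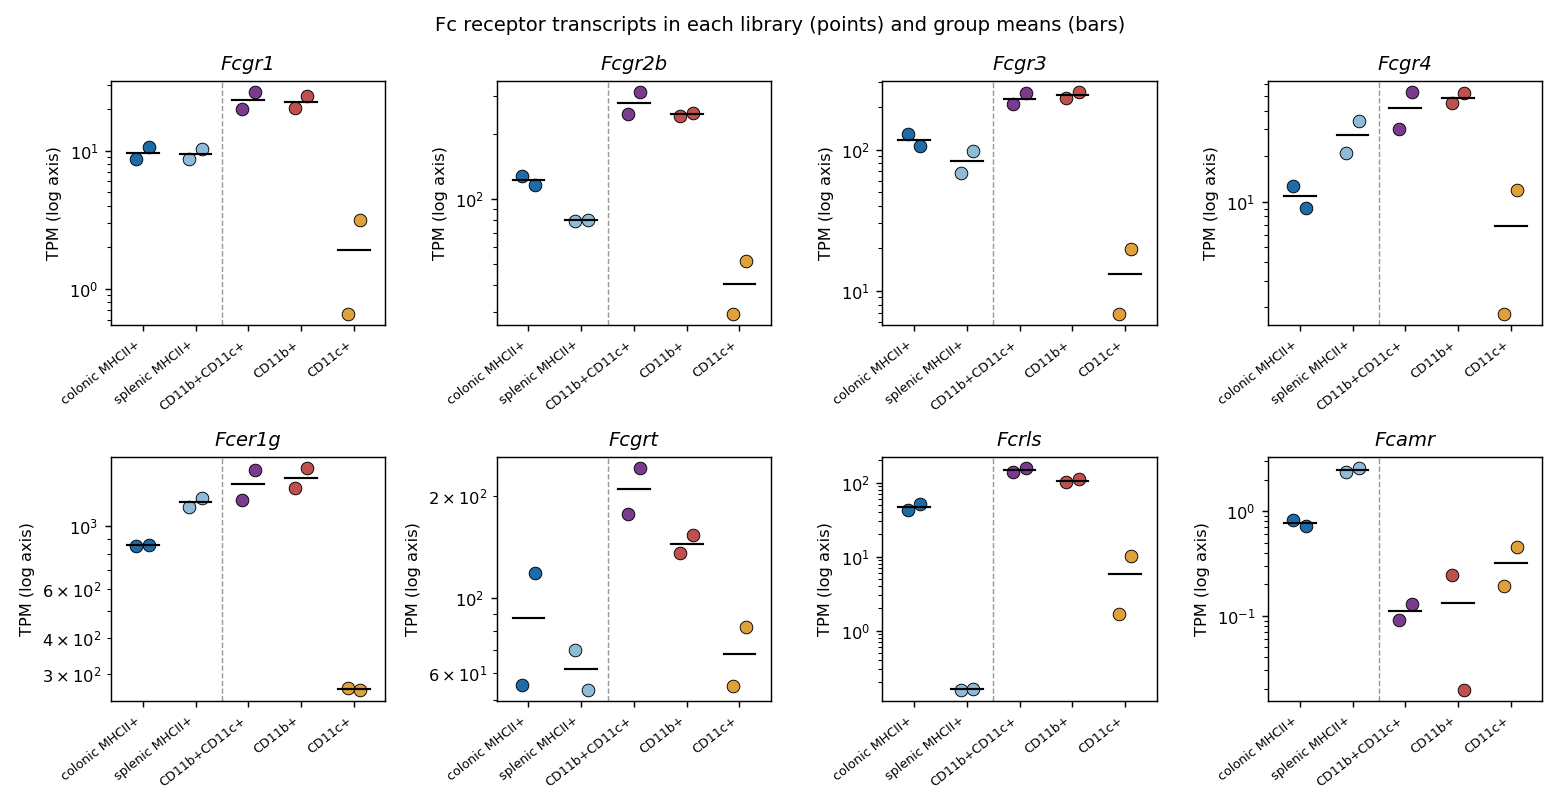
Each panel gives 1 gene in TPM (log axis), with a point for each library and a bar for each group mean. A dashed line separates the MHCII+ set from the integrin subsets. In 7 of the 8 panels both CD11b-bearing subsets lie above CD11c+ cells, and Fcrls is near 0.161 TPM in splenic MHCII+ cells.

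Set in order of mean TPM over all 5 groups, as a description with no test across sets, Fcgr1 ran from CD11b+CD11c+ (23.4 ± 4.48, SD, n = 2) and CD11b+ cells (22.6 ± 3.13) through colonic (9.64 ± 1.36) and splenic MHCII+ cells (9.50 ± 1.18) to CD11c+ cells (1.91 ± 1.78). Its neighbours overlapped within both of the first pairs. Fcgr3 had the order CD11b+ (243.5 ± 15.7), CD11b+CD11c+ (229 ± 29.3), colonic MHCII+ (116.8 ± 16.0), splenic MHCII+ (83.3 ± 20.6) and CD11c+ cells (13.3 ± 9.07), with overlap in the top pair. Fcgr2b had CD11b+CD11c+ (278.8 ± 45.9), CD11b+ (245.8 ± 6.36), colonic MHCII+ (122 ± 8.34), splenic MHCII+ (79.7 ± 0.926) and CD11c+ cells (40.6 ± 15.9), again with overlap in the top pair on the TPM scale. For all 3 of these genes, CD11c+ cells were lowest and the CD11b-bearing subsets highest.

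Splenic MHCII+ cells stood above colonic MHCII+ cells for other genes. For Fcgr4 the order was CD11b+ (48.8 ± 5.23), CD11b+CD11c+ (41.6 ± 16.1), splenic MHCII+ (27.7 ± 9.37), colonic MHCII+ (10.9 ± 2.55) and CD11c+ cells (6.84 ± 7.14), where only splenic and colonic MHCII+ cells were neighbours without overlap. Fcer1g reached far higher TPM than any receptor, with CD11b+ (1491 ± 173.9), CD11b+CD11c+ (1410 ± 245.4), splenic MHCII+ (1216 ± 59.4), colonic MHCII+ (855.8 ± 7.35) and CD11c+ cells (264.1 ± 2.48). The CD11b+ and splenic MHCII+ libraries did not overlap each other, but CD11b+CD11c+ libraries overlapped both. The main Fcer1g coding sequence has only 261 bases, and CPM, which is not corrected for length, gave another order. In CPM its mean was below that of Fcgr2b in every colonic group (252.8 against 403.4 in CD11b+CD11c+ cells). In splenic MHCII+ cells it was above (195.4 against 107.7 CPM). Splenic MHCII+ cells were highest for Fcamr (2.49 ± 0.152 TPM, against 0.772 ± 0.0754 in colonic MHCII+ cells and at most 0.321 in a subset) and lowest for Fcrls (0.161 ± 0.0045 TPM). Fcgrt had CD11b+CD11c+ (210.2 ± 46.2), CD11b+ (144.6 ± 12.7), colonic MHCII+ (87.2 ± 44.96), CD11c+ (68.4 ± 19.0) and splenic MHCII+ cells (61.8 ± 11.7). The last 3 overlapped. The place of splenic MHCII+ cells below CD11c+ cells depended on the 110-base Fcgrt-202. Without it, both CD11c+ libraries (32.04 and 42.82 TPM) were below both splenic ones (44.09 and 47.05 TPM). They still overlapped the colonic MHCII+ libraries (42.09 and 58.05 TPM). Fcrls was the only gene with no overlap between any neighbours, from CD11b+CD11c+ (147.2 ± 14.9) and CD11b+ cells (106.2 ± 7.35) to colonic MHCII+ (46.6 ± 6.17) and CD11c+ cells (5.88 ± 5.97).

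The balance of activating to inhibitory IgG receptors was taken as the summed TPM of Fcgr1, Fcgr3 and Fcgr4 over that of Fcgr2b, as a description. It was 1.17 and 1.08 in colonic MHCII+ libraries, against 1.25 and 1.77 in splenic MHCII+ libraries. In the subsets it was 1.05 and 1.06 in CD11b+CD11c+ libraries, 1.23 and 1.33 in CD11b+ libraries and 0.316 and 0.670 in CD11c+ libraries. The CD11c+ libraries were the ones in which inhibitory transcript exceeded activating transcript. Within the activating receptors, Fcgr3 over Fcgr4 (TPM) was 10.1 and 11.7 in colonic MHCII+ libraries, against 3.25 and 2.85 in splenic MHCII+ libraries. It was 6.91 and 4.72 in CD11b+CD11c+ libraries, 5.15 and 4.85 in CD11b+ libraries and 3.81 and 1.65 in CD11c+ libraries, so the colonic MHCII+ libraries stood highest of all.

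Macrophage markers moved with most of these genes in the comparisons with CD11c+ cells, but not in the MHCII+ set. There 7 of 10 such markers were higher and 1 lower in colonic cells. Of the 8 Fc receptor genes, 3 were higher and 2 lower there. The markers summed to 2707 and 2405 CPM in colonic MHCII+ libraries, against 1272 and 1402 CPM in splenic ones. All 10 markers were higher in each CD11b-bearing subset than in CD11c+ cells, with none at 0. They summed to 9307 and 12260 CPM in CD11b+CD11c+ libraries and 8112 and 9244 CPM in CD11b+ libraries. The CD11c+ libraries had 291.8 and 1376 CPM. CD11c+ library 2, which had more CPM of each Fc receptor gene than library 1, also had the higher macrophage sum. For Fcer1g the gap was small (49.8 against 46.9 CPM) and turned round in TPM (262.3 against 265.8). Fcamr rested on few counts. T and NK cell markers summed to 58.0 and 9.02 CPM in CD11b+CD11c+ libraries and 38.7 and 31.1 CPM in CD11b+ libraries, against 995.4 and 322.5 CPM in CD11c+ libraries 1 and 2, with all 8 markers lower in each CD11b-bearing subset. Eosinophil markers summed to 43.1 and 61.7 CPM in CD11b+CD11c+ libraries and 438.9 and 406.1 CPM in CD11b+ libraries, against 12.3 and 18.4 CPM in CD11c+ libraries, where Epx was listed at 0 in both. Neutrophil markers summed to 102.7 and 137.1 CPM in CD11b+CD11c+ libraries and 327.4 and 300.4 CPM in CD11b+ libraries, against 3.41 and 14.7 CPM in CD11c+ libraries, where Camp and S100a8 were listed at 0 in both. Of 6 markers of cDC1 dendritic cells, 5 were lower in CD11b+CD11c+ and 6 in CD11b+ than in CD11c+ cells, with a sum of 1234 and 742.3 CPM in CD11b+CD11c+ libraries, 291.8 and 288.3 CPM in CD11b+ libraries and 3524 and 3831 CPM in CD11c+ libraries. Of 6 cDC2 markers, 5 were higher in CD11b+CD11c+ and 4 in CD11b+ than in CD11c+ cells, and 0 were lower. They summed to 992.3 and 1020 CPM in CD11b+CD11c+ libraries and 617.4 and 685.1 CPM in CD11b+ libraries. The CD11c+ libraries had 74.7 and 142 CPM. All 4 markers shared by conventional dendritic cells were lower in each CD11b-bearing subset than in CD11c+ cells. Monocyte markers summed to 1002 and 1008 CPM in CD11b+CD11c+ and 1054 and 953.6 CPM in CD11b+ libraries. The CD11c+ libraries had 462.1 and 447 CPM. Of the 6, 3 were higher and 3 lower in CD11b+CD11c+, and 4 higher and 1 lower in CD11b+, than in CD11c+ cells. Stromal and endothelial sums were 584.6 and 488.4 CPM in CD11b+CD11c+, 3103 and 2811 CPM in CD11b+ and 891.4 and 1020 CPM in CD11c+ libraries. The part of these cell types in the differences was not tested.

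Each gene was also set against Csf1r, the macrophage growth factor receptor gene, as a percent of its CPM in the same library. Csf1r itself was at 822.9 and 687.7 CPM in colonic MHCII+ libraries and 633.2 and 713.3 CPM in splenic ones, and at 2103 and 2764 CPM in CD11b+CD11c+ libraries, 2051 and 2199 CPM in CD11b+ libraries and 51.1 and 305.7 CPM in CD11c+ libraries. Fcgr1 stayed between 2.01 and 3.26% of Csf1r in all 10 libraries. Fcgr3 lay between 8.41 and 19.4%. Both ranges were narrower than that of Csf1r itself.

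Other genes departed from Csf1r in particular groups. Fcrls was at 14.1 and 20.5% in colonic MHCII+ libraries, against 0.0297 and 0.0551% in splenic MHCII+ libraries, although Csf1r overlapped between them. It was at 18.1 and 16.2% in CD11b+CD11c+ libraries, 13.1 and 13.4% in CD11b+ libraries and 9.13 and 9.57% in CD11c+ libraries. Fcer1g was at 17.5 and 25.0% in colonic MHCII+ libraries, against 28.9 and 29.2% in splenic ones. In the subsets it was at 10.8 and 10.1% in CD11b+CD11c+ libraries and 11.9 and 12.7% in CD11b+ libraries, against 91.8 and 16.3% in CD11c+ libraries. Fcgr2b, at 88.9 and 26.7%, and Fcgrt, at 119 and 27.6%, had their highest values relative to Csf1r in both CD11c+ libraries, which Fcer1g had only in library 1. Fcgr4 was at 1.69 and 1.52% in colonic MHCII+ libraries, against 3.42 and 4.72% in splenic ones.

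**Figure D4:**
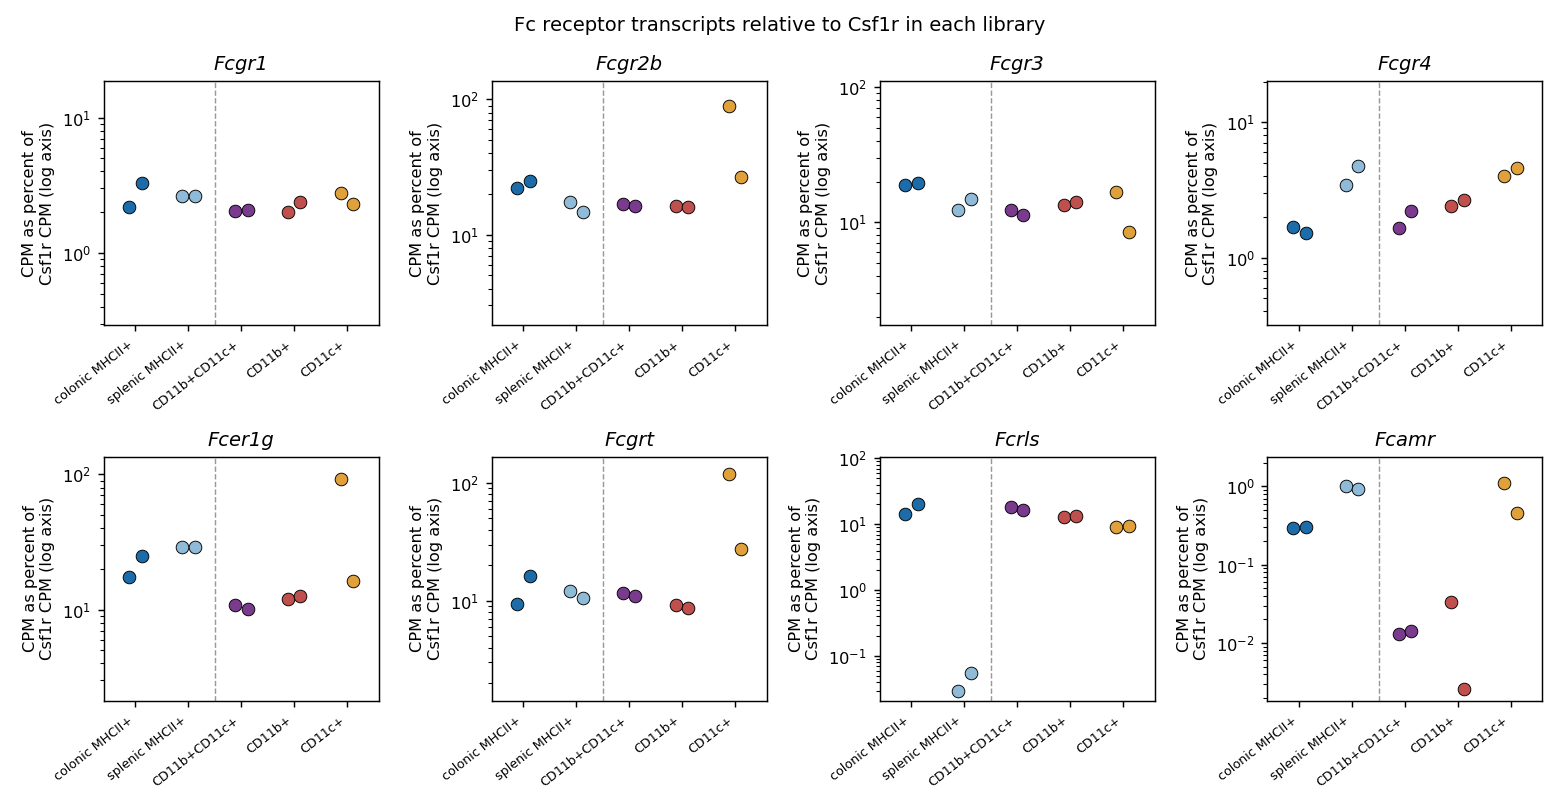
Each point is the CPM of an Fc receptor gene as a percent of Csf1r CPM in the same library (log axis), by group, with a dashed line between the MHCII+ set and the integrin subsets. Fcgr1 stays between 2.01 and 3.26% in every library, whereas Fcrls falls to 0.0551% or less in splenic MHCII+ cells.

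The partner chains came next. B2m, the light chain partner of Fcgrt, averaged 860.6 ± 39.96 CPM in colonic MHCII+ cells, against 1404 ± 53.6 CPM in splenic MHCII+ cells (log2 fold change -0.71, adjusted p = 0.00133). All 4 partner chains were lower in colonic cells, including Tyrobp (DAP12) at 326 ± 3.88 CPM, against 502 ± 76.4 CPM (-0.62, adjusted p = 0.00557), and Cd247. The median over the 4 was -0.72, where all genes had 0.02. Compared with CD11c+ cells, B2m and Tyrobp were higher in both CD11b-bearing subsets, but the list as a whole was not. In CD11b+CD11c+ cells 2 of the 4 were higher and 2 lower (median -0.48, all genes -0.09). In CD11b+ cells 2 were higher, 1 was lower and 1 did not pass (median -0.17, all genes -0.02). Tyrobp averaged 415.9 ± 19.6 CPM in CD11b+CD11c+ cells (1.25, adjusted p = 0.000623) and 482.8 ± 0.899 CPM in CD11b+ cells (1.46, adjusted p = 3e-04), against 175.3 ± 13.9 CPM in CD11c+ cells.

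Other receptors that signal through the gamma chain were mostly higher in the CD11b-bearing subsets than in CD11c+ cells. Of 9 measured, 8 were higher and 1 lower in CD11b+CD11c+ than in CD11c+ cells, with a median log2 fold change of 3.69 (all genes -0.09), and likewise 8 and 1 in CD11b+ cells, with a median of 3.23 (all genes -0.02). The lower one was Ncr1, the NKp46 receptor of NK cells, at 0.446 ± 0.520 CPM in CD11b+CD11c+ cells and 0.565 ± 0.0716 CPM in CD11b+ cells, against 9.42 ± 1.80 CPM in CD11c+ cells. It was named after its values were seen. Clec4e (Mincle, a receptor for mycobacterial cord factor) averaged 131.5 ± 3.70 CPM in CD11b+CD11c+ cells (5.96, adjusted p = 0.000508) and 239.6 ± 18.8 CPM in CD11b+ cells (6.82, adjusted p = 0.000276), against 2.23 ± 1.54 CPM in CD11c+ cells. Clec4d and Clec4n (Dectin-2) also rose in both subsets. In colonic against splenic MHCII+ cells, 3 of 9 were higher, among them Clec4e at 199.8 ± 39.5 CPM, against 15.4 ± 2.02 CPM (3.71, adjusted p = 1.27e-05), 2 were lower and the median was 0.18. Between CD11b+CD11c+ and CD11b+ cells, 1 of the 9 was higher (Clec4b1) and 1 lower (Pira2), and the median was -0.53. Clec4e did not pass there, with a log2 difference of -0.87 ± 0.33 (adjusted p = 0.163). Oscar and Gp6 were not measured.

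Downstream, the 25 activating signalling genes gave 15 higher and 1 lower in CD11b+CD11c+ than in CD11c+ cells (median 0.54) and 13 higher and 4 lower in CD11b+ than in CD11c+ cells (median 0.36). Syk averaged 517.4 ± 27.3 CPM in CD11b+CD11c+ cells (1.49, adjusted p = 0.00154) and 520.5 ± 11.4 CPM in CD11b+ cells (1.501, adjusted p = 0.00119), against 184 ± 44.7 CPM in CD11c+ cells. The Src-family kinase gene Lyn rose less, with log2 fold changes of 0.54 (adjusted p = 0.0141) and 0.55 (adjusted p = 0.0107) over CD11c+ cells. In colonic against splenic MHCII+ cells only 2 of the 25 were higher and 17 lower (median -0.59), among them Prkcd (467.2 ± 1.56 CPM, against 701.9 ± 22.2 CPM), Nckap1l and Dock2. Ptprc was also lower in colonic cells (log2 fold change -1.42, adjusted p = 6.11e-05), as were the B cell and neutrophil marker sums, and epithelial markers were higher (values above). The part of these cell types in the signalling lists was not tested. Between CD11b+CD11c+ and CD11b+ cells, 3 were higher and 2 lower. Malt1, a paracaspase downstream of CARD9, averaged 481.8 ± 21.7 CPM in CD11b+CD11c+ cells, against 274.8 ± 33.1 CPM in CD11b+ cells (0.81, adjusted p = 0.012).

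Of 13 inhibitory signalling genes, 9 were higher and 3 lower in CD11b+CD11c+ than in CD11c+ cells (median 1.17), and 8 were higher and 3 lower in CD11b+ than in CD11c+ cells (median 0.99). Inpp5d, the SHIP-1 gene, was among the lower ones, at 431.5 ± 19.4 CPM in CD11b+CD11c+ cells (-0.37, adjusted p = 0.0412) and 355 ± 40.4 CPM in CD11b+ cells (-0.65, adjusted p = 0.00503), against 556.8 ± 34.1 CPM in CD11c+ cells. So the gene of the effector of Fcgr2b was lower where Fcgr2b was higher. The inhibitory receptor Lilrb4a averaged 1652 ± 172.8 CPM in CD11b+CD11c+ cells (2.70, adjusted p = 0.000702) and 1761 ± 99.2 CPM in CD11b+ cells (2.79, adjusted p = 0.000464), against 255.2 ± 76.8 CPM in CD11c+ cells. In colonic against splenic MHCII+ cells 2 of 13 were higher and 8 lower (median -0.74). Ptpn6, the SHP-1 gene, fell to 135.2 ± 9.24 CPM in colonic cells, against 881.4 ± 76.5 CPM in splenic cells (-2.70, adjusted p = 9.61e-06), whereas Lilrb4a rose to 773 ± 130.2 CPM, against 158.3 ± 11.7 CPM (2.29, adjusted p = 3.65e-05). Lilrb4a, Pirb and Pira2 belong to families with near-identical copies, and their levels are uncertain.

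**Figure D5:**
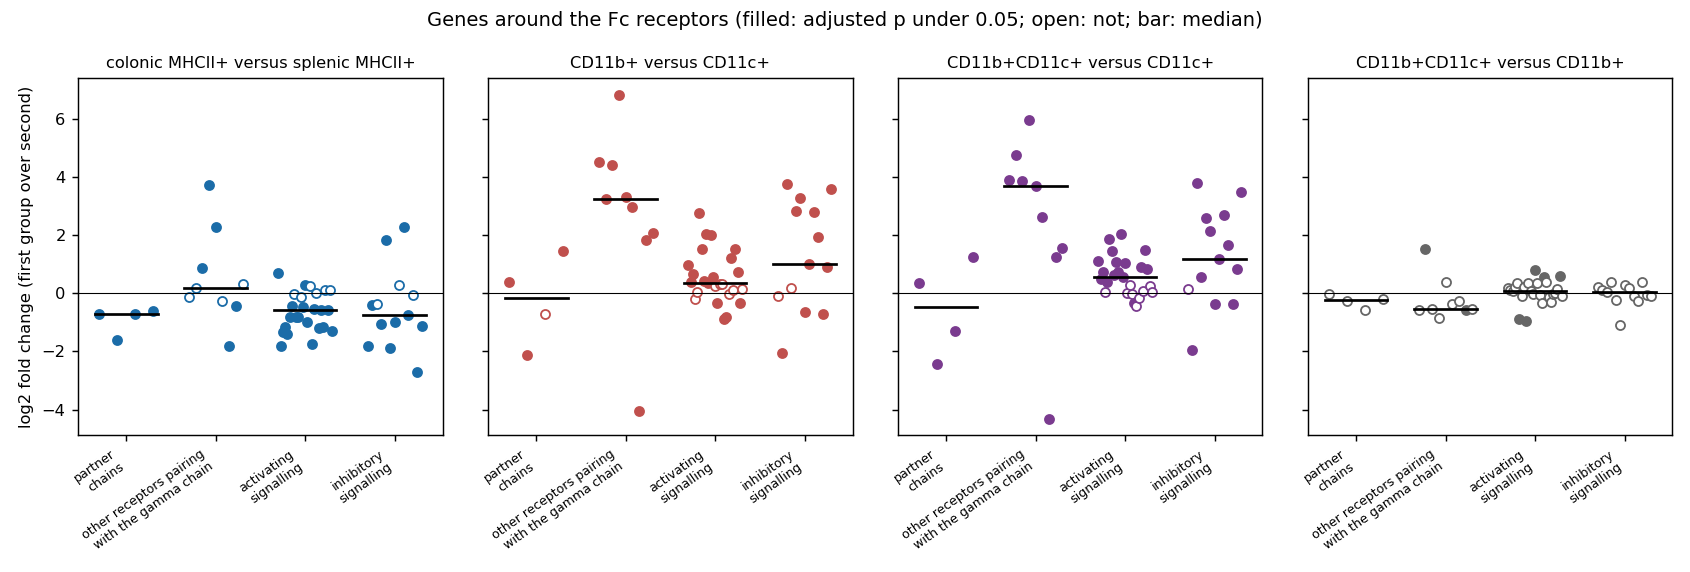
Each point is the log2 fold change of a gene, first-named group over second, in 4 lists around the Fc receptors, with filled points for an adjusted p under 0.05, open points for the rest and bars for list medians. Receptors pairing with the gamma chain have medians of 3.23 and 3.69 over CD11c+ cells. Signalling genes lie mostly below 0 in colonic against splenic MHCII+ cells.

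Other immunoglobulin-binding proteins gave 2 higher and 6 lower of 10 measured in colonic against splenic MHCII+ cells (median -2.56). Pigr, which carries IgA across epithelium, averaged 922.9 ± 12.2 CPM in colonic cells, against 1.60 ± 0.640 CPM in splenic cells (9.20, adjusted p = 2.76e-06), and the mucus protein gene Fcgbp 569.1 ± 99.5 CPM, against 0.569 ± 0.606 CPM (10.07, adjusted p = 2.07e-05). Both are epithelial products, and all 6 epithelial markers were higher in colonic MHCII+ cells. Fcmr, the IgM receptor gene of B cells, averaged 6.81 ± 0.545 CPM, against 168.7 ± 15.6 CPM (-4.62, adjusted p = 2.67e-06). Fcer1a and Ms4a2, the binding and beta chains of the high-affinity IgE receptor, were not measured, and both were listed at 0 in both colonic MHCII+ libraries, so Fcer1g was present there without them. In the subsets 8 were measured, of which 0 were higher and 2 lower in CD11b+CD11c+ than in CD11c+ cells, and 1 was higher (Pigr) and 1 lower (Fcrla) in CD11b+ than in CD11c+ cells. Between CD11b+CD11c+ and CD11b+ cells edgeR called 0 of these 8.

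Immunoglobulin itself was abundant. Of 7 heavy chain constant genes measured, 3 were higher and 3 lower in colonic than in splenic MHCII+ cells. Igha averaged 13480 ± 1375 CPM in colonic MHCII+ cells, against 43.8 ± 13.96 CPM in splenic ones (8.27, adjusted p = 5.43e-06), and Ighm 214.3 ± 47.8 CPM, against 1996 ± 111.6 CPM (-3.22, adjusted p = 2.19e-05). In the subsets Igha averaged 9463 ± 1583 CPM in CD11b+CD11c+ cells and 12390 ± 1876 CPM in CD11b+ cells, against 29840 ± 6164 CPM in CD11c+ cells, so the subset lowest in 7 of the 8 genes had most IgA transcript. All 5 plasma cell markers, Igha among them, were higher in colonic than in splenic MHCII+ cells. Of the 5, 4 were lower in CD11b+CD11c+ and 4 in CD11b+ than in CD11c+ cells. The part of plasma cells was not tested. These constant genes resemble each other, so reads could be divided wrongly between them.

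Genes whose pattern lay closest to an Fc receptor gene were ranked by Pearson's r of log2(CPM + 1) over the 6 subset libraries, among 9138 genes and as a description. For Fcgr1 these were Lgmn, Fblim1 and Adgre1 (the F4/80 gene). Syk led for Fcgr3, before Clec4a3 and Sp2, and Fcrls was closest to Abca9, Mrc1 (CD206) and Pf4. Fcgr2b had Ctsa, Lrp12 and Ifi207, Fcgr4 had Ptgs1, Itgb5 and Lilra5, Fcer1g had Sh3bp5, Ythdf3 and Mex3d, and Fcgrt had Grn, Eid3 and Osbpl1a. The libraries fall into 3 subsets, so high r was common: 1158 genes had r over 0.95 with Fcgr1, 1252 with Fcgr3 and 491 with Fcgr4. Fcamr had only 4 such genes, led by Ipo9, Mogs and Fbxo42 among those ranked.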

How the data were processed

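The 10 libraries were directional poly(A) libraries, per the labels' protocols. The deposited files give estimated counts (expected reads per coding transcript, not normalized) and TPM (computed on effective lengths), per the file headers. kallisto 0.44.0, sleuth and build mm10 are named in the submitters' processing notes. For the index release and strand setting, nothing was given in the sources used here. Among 66760 transcripts, 88.9% had lengths divisible by 3 (coding lengths), and 65747 (98.48%) matched GENCODE M21.

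Counts were summed to genes, then rounded. The MHCII+ set (4 libraries) and the integrin subsets (6) were fitted separately with edgeR 4.0.16 in R 4.3.3 (filterByExpr, TMM, quasi-likelihood F test, group as the only term), after being tested on simulated data. Every adjusted p is Benjamini-Hochberg over all 15076 or 14225 genes of this test unless another tool is named, with 0.05 as threshold. CPM are TMM-scaled. SE is the log2 fold change over the root of F. Replicates differed beyond sampling noise (chi-square per gene 10.8 to 38.5). Alternatives used DESeq2 1.42.0, limma 3.58.1, other filters and scalings, and left-out libraries.

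Members and gene lists were chosen with earlier results of these data known. From each list, the 3 most highly expressed genes past the threshold could be named. The 3 genes closest to each member needed an average log2 CPM of at least 3. Lists have no set test.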

Additional observations from a re-analysis of the deposited data

How the results depend on the processing

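Of 432 alternative values of the members' log2 fold changes, 389 kept direction and side of the threshold, 11 gained a call, 12 lost one and 20 changed sign. All 20 were uncalled differences between CD11b+CD11c+ and CD11b+ cells. Fcamr (-0.07 as reported) gave 0.0138 with no count filter, 0.0464 with limma on log2(TPM + 0.1) and 0.0237 with all 10 libraries. Fcer1g (-0.05) gave 0.0485 with no count filter and 0.04 with all 10 libraries. Fcgr3 (-0.03) gave 0.0023 with DESeq2, 0.0021 with RLE size factors, 0.0646 with no count filter, 0.12 summed with Fcgr2b and 0.0561 with all 10 libraries. Leaving out a library gave -0.96 to 2.38 for Fcamr, -0.14 to 0.15 for Fcer1g, -0.0565 to 0.38 for Fcgr1, -0.12 to 0.15 for Fcgr3 and -0.56 to 0.18 for Fcgr4. With all 10 libraries in 1 fit, 3 rather than 5 of the 8 genes passed in colonic against splenic MHCII+ cells. Between CD11b+CD11c+ and CD11b+ cells, where the count was 0, no count filter gave 1 (Fcgrt), and leaving out a library gave 0 to 2. Over all genes, leaving out a library gave 4372 to 7089 calls for CD11b+ over CD11c+ cells (7392 with all), 3190 to 5707 for CD11b+CD11c+ over CD11c+ cells (6110) and 226 to 1748 for CD11b+CD11c+ over CD11b+ cells (1370). The last was 844 and 743 with limma on log2(TPM + 1) and log2(TPM + 0.1), and 831 with an effective length offset; the cause was not tested. Of its calls 39.3% were higher, against 50% with DESeq2, 27.1% with limma, 55.8% with no count filter and 60.5% with all 10 libraries. limma on TPM moved the median of all genes in colonic against splenic cells from 0.02 to -0.12 and -0.15. With the replicate number as a block, 7, 7 and 0 of the 8 genes were called, and 7316, 6075 and 1427 of all genes. Deviations of same-numbered libraries correlated at 0.333 for CD11b+CD11c+ with CD11c+ cells but at -0.0534 for CD11b+ with CD11c+ and 0.00455 for CD11b+CD11c+ with CD11b+ cells, so the numbers were not taken as pairs. No paired analysis was possible because both splenic titles carry the same number, in the MHCII+ set. With 2 libraries a group, Fcamr in the subsets is limited by its counts.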

Other observations

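Fcgr1, Fcgr4 and Fcamr had all their counts on 1 transcript in every library. Fcgr3-204 held 7.57 to 22.9% of Fcgr3 counts (median 13.1%), Fcgrt-203 held 13.7 to 28.3% of Fcgrt counts (median 17.4%) and Fcer1g-203 held 1.29 to 3.58% of Fcer1g counts over the 10 libraries. Fcrls-202 held 0 to 34.7% of Fcrls counts (median 0), the highest in a splenic MHCII+ library with few Fcrls counts.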
